A study of Mus musculus with 2 samples.

Results

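MOF, encoded by Kat8, is the acetyltransferase that acetylates lysine 16 of histone H4. The accessibility of Kat8 and of 9 genes for subunits of its complexes was followed in single cells of embryonic mouse skin, at their promoters and along their gene bodies. MSL1, MSL2 and MSL3 are the partners of MOF in the MSL complex, and KANSL1, KANSL2, KANSL3, MCRS1, PHF20 and WDR5 are its partners in the NSL complex. The members were all accessible regions within 500 bp of a transcription start or inside the body of these 10 genes, which gave 98 regions out of 369634 in all. Of these, 13 were promoter regions and 85 were gene-body regions.

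MOF works mainly inside these complexes. In the MSL complex, MSL1 is the scaffold, MSL2 carries ubiquitin ligase activity and MSL3 holds a chromodomain; this complex accounts for most acetylation of H4 lysine 16. In the NSL complex, KANSL1 is the scaffold, and the complex is known for acting at promoters of housekeeping genes. WDR5 also belongs to the COMPASS family of histone methyltransferase complexes, and MCRS1 also belongs to the INO80 remodelling complex.

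Single-cell ATAC-seq, which counts the sites where a transposase cut open chromatin, was performed on mouse back skin at E16.5. Control embryos gave 1 library and MOF cKO embryos gave 1 (MOFfl/fl/K14Cre), in which Cre is driven by the keratin 14 promoter, active in skin epithelium and not in dermal fibroblasts. Both genotypes carried K14-H2BGFP. The GFP-positive epithelial cells and GFP-negative cells were sorted and mixed again, at 5 parts to 1 per the labels, so the proportions of cell classes are not those of the tissue. Cells named epithelial-like below were 51.9% of the Control and 58.7% of the MOF cKO cells, less than a mix of 5 to 1 would give. The study's text gives the mixing ratio differently from the labels, the Control embryos were littermates on a mixed background, and sex was not distinguished. With 1 library per genotype there is no replicate check and no test was made: intervals in parentheses are exact 95% Poisson or binomial intervals and cover counting error only, and a difference between genotypes cannot be told apart from a difference between these libraries.

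After cells with fewer than 1000 sites were removed, 2481 Control and 4348 MOF cKO barcodes remained, with 62973 and 66240 sites per barcode at the median before that filter; 13 barcodes occurred in both libraries. Clusters were named from marker genes, giving 1288 Control and 2553 MOF cKO epithelial-like cells and 659 and 1253 fibroblast-like cells. The epithelial-like cells of the libraries fell into different clusters, Control in clusters 1 and 7 and MOF cKO mainly in clusters 0, 2 and 6, and this composition was part of every epithelial comparison. Each of these 5 clusters showed 7 or 8 of 10 epithelial markers at 2-fold or more over the other cells. The name depends on the clustering: at a finer one, Leiden resolution 2, 1659 of the 2553 MOF cKO epithelial-like cells went to clusters without a name. Fibroblast-like cells were mostly in cluster 4 in the Control and in clusters 3 and 5 in the MOF cKO. Clusters with a median doublet score above 0.5 were left without a name, a rule chosen after the data were seen.

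To show what kind of sequence the promoter values refer to, the bases upstream of the start of Kat8, of the MSL gene Msl2 and of the NSL gene Wdr5 are printed 5′ to 3′ from GRCm38, chosen because no annotated exon covers them. They lie on the plus strand at chr7:127912267-127912515 (Kat8), chr9:101073804-101074053 (Msl2) and chr2:27514897-27515146 (Wdr5). Capitals mark matches on either strand to the letters CCAAT, known for binding of NF-Y, to GGGCGG, known for Sp-family factors, and to GCGCATGC, known for NRF1.
Kat8: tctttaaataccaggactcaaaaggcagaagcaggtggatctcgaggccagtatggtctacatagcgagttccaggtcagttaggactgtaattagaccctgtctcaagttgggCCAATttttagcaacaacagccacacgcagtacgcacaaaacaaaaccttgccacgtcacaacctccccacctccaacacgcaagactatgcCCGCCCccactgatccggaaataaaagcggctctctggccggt
Msl2: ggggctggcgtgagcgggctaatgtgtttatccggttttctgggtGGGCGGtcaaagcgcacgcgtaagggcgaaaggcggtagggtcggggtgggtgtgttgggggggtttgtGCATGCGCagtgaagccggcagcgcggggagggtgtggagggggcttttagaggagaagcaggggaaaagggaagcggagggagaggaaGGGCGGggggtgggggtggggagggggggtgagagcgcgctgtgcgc
Wdr5: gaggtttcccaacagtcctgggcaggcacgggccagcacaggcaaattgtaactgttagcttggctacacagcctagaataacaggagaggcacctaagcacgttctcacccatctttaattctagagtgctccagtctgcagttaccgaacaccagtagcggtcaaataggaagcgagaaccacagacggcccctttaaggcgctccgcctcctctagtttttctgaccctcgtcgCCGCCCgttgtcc

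In the 250 bp upstream of the start, from RefSeq promoters of GRCm38, GGGCGG occurred in 9 of the 10 members, all but Kansl3, and in 44.2% of 16515 promoters. The member promoters all start inside a region called in both libraries, while the 16515 were taken whether open or not. The shares and medians given here are therefore not matched for openness. CCAAT occurred in 4 members (Kat8, Kansl1, Kansl2 and Phf20) against 36.0% of promoters, CCGGAAG in Mcrs1 alone against 9.45%, and GCGCATGC in Msl2 alone against 3.13%. TGACGTCA, the CRE sequence, was in 0 of 10 members and 2.08% of promoters, and TGACTCA, the AP-1 sequence, in 0 of 10 and 3.98%. The GC content of the members ranged from 51.2% in Kat8 to 80.4% in Msl1, with a median of 63.0% against 56.0% over all promoters. Their observed to expected CpG ratio had a median of 0.814 against 0.558, and ran from 0.553 in Kansl1 to 1.07 in Msl2.

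The promoter of Kat8, the targeted gene, was open in the epithelial-like cells of both genotypes. It lies at chr7:127912148-127913084 and includes the first coding exon. Among epithelial-like cells its accessibility was 49.8 CPM (47.8 to 51.8) for the Control and 36.8 CPM (35.6 to 38.0) for the MOF cKO, where CPM counts sites per 1000000 sites of that class and library in regions called in both libraries. The log2 change was -0.44 (-0.51 to -0.36), and -0.27 (-0.58 to 0.043) with cells thinned to 5000 sites each. Promoters as a whole moved by almost the same amount, with a median of -0.41 over 15877 genes, and Kat8 stood at the 45.8th percentile of them. In fibroblast-like cells Kat8 had 29.6 CPM (27.3 to 32.1) in Control and 27.7 (25.8 to 29.6) in MOF cKO, an interval of the change of -0.25 to 0.06. Promoter accessibility does not show whether the allele was deleted, and the labels do not say which exons are floxed.

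All 3 MSL genes had lower promoter accessibility in MOF cKO epithelial-like cells, with Msl1 and Msl2 moving most and Msl3 least of the 10 genes. Msl1, the scaffold, went from 25.7 CPM (24.2 to 27.1) in Control to 15.9 (15.1 to 16.7) in MOF cKO, a log2 change of -0.69 (-0.80 to -0.58) at the 9.69th percentile of all promoters. Another Msl1 promoter region, at chr11:98797776-98798663, was called in MOF cKO only, with 332 epithelial sites. It has no Control counts and is left out of this change, so the place of Msl1 rests on its shared region. Msl2 went from 39.0 CPM (37.3 to 40.8) to 25.2 (24.2 to 26.2), a log2 change of -0.63 (-0.72 to -0.55) at the 14.1th percentile. Msl3, on the X chromosome, went from 17.5 CPM (16.4 to 18.8) to 15 (14.2 to 15.8), a log2 change of -0.23 (-0.35 to -0.10) at the 73.4th percentile. Relative to the median promoter these were -0.28, -0.22 and 0.19, so the 3 MSL genes lay on both sides of it. X-linked promoters had a median of -0.45 over 511 genes, and X carried 1.64% of epithelial sites in Control and 1.57% in MOF cKO.

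The 6 NSL genes moved within a narrower range, from -0.53 for Mcrs1 to -0.33 for Wdr5. Kansl1, the scaffold, went from 70.0 CPM (67.6 to 72.4) to 48.8 (47.5 to 50.2) over its 2 shared promoter regions, with a log2 change of -0.65 (-0.75 to -0.55) at the upstream promoter and -0.42 (-0.50 to -0.33) at the promoter 26.2 kb into the gene. A further Kansl1 promoter region, at chr11:104466623-104467522, was called in MOF cKO only, with 273 epithelial sites, and is left out. Kansl2 went from 62.2 CPM to 44.5 and Kansl3 from 18.9 to 13.7. Mcrs1, whose promoter region also lies within 500 bp of the start of 1700120C14Rik, went from 58.2 CPM to 40.3. Phf20, which encodes a reader of methylated histones, went from 56.9 CPM to 42.3, and Wdr5 from 17.4 to 13.8. The median of the 6 was -0.47. By CPM the intervals of the change excluded 0 for each, but those of Kansl3, Phf20 and Wdr5 included 0 by median-of-ratios over promoters (-0.17 to 0.078, -0.083 to 0.057 and -0.043 to 0.21) and with cells thinned to 5000 sites (-0.80 to 0.21, -0.55 to 0.058 and -1.06 to 0.0013).

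Read against all promoters, the 10 genes did not stand apart. All 10 were lower in MOF cKO epithelial-like cells, as were 84.7% of the 15877 promoters. None was at least 2-fold lower (background 2.51%) or at least 2-fold higher (background 2.43%). None was at least 20% below the median promoter (background 7.63%) or at least 25% above it (background 19.0%), bounds that are equal folds. The median of the 10 was -0.47, which is 0.06 below the median of all promoters on the log2 scale. The common shift depends on the scaling: when the median promoter was set to 0, the 10 genes had a median of -0.057, Kat8 was at -0.021, Msl1 at -0.28, and Msl3 (0.19) and Wdr5 (0.083) were above 0.

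In fibroblast-like cells, where K14Cre is not active, the same promoters differed little between libraries when scaled by sites in shared regions. Scaled by sites per cell they were lower, with a median of -0.34 for the 10 (Kat8 -0.38, Msl1 -0.61) and -0.31 over all promoters, against -0.46 and -0.40 in epithelial-like cells. By CPM, Msl1 was again the lowest, at 33.9 CPM (31.3 to 36.5) in Control and 27.1 (25.3 to 29.0) in MOF cKO, a log2 change of -0.32 (-0.47 to -0.17) at the 7th percentile of 15754 promoters. Kansl1 was the other gene whose interval excluded 0, at -0.11 (-0.20 to -0.02). The remaining 8 lay between -0.10 and 0.02, and the median of the 10 was -0.06 against -0.03 over all promoters. None was 2-fold lower (background 0.825%), 2-fold higher (background 1.87%), 20% below the median promoter (background 6.18%) or 25% above it (background 9.73%).

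**Figure D1:**
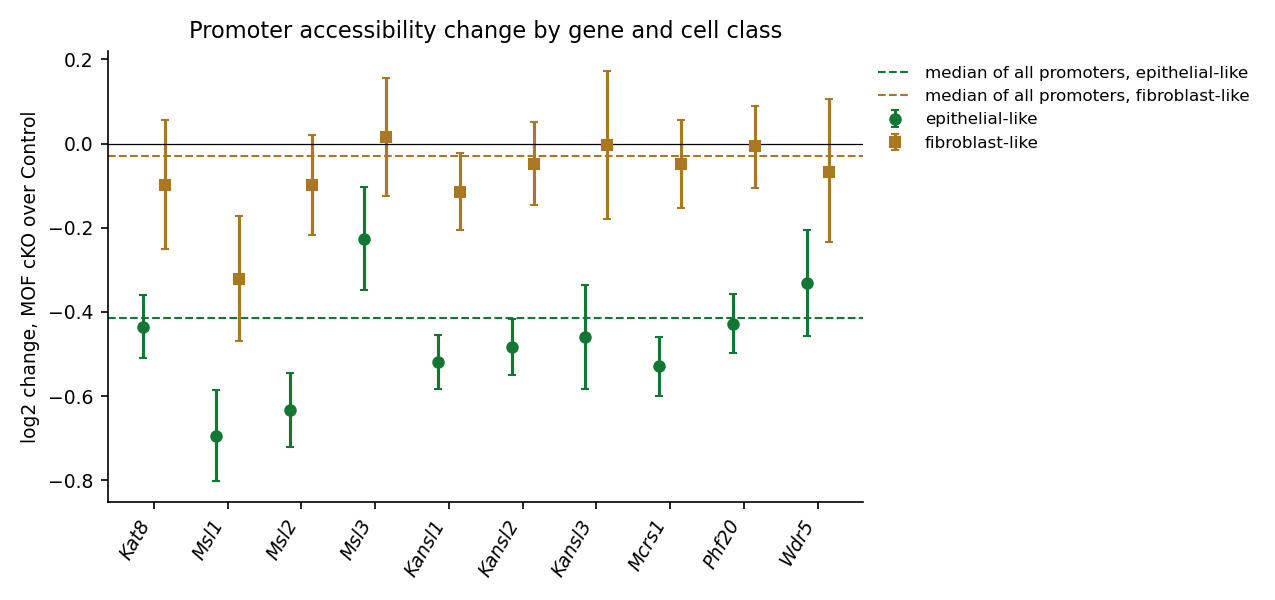
Log2 change of promoter accessibility, MOF cKO over Control, for each gene in epithelial-like (circles) and fibroblast-like (squares) cells, with 95% intervals from counting; dashed lines are the medians of all promoters in each class (-0.41 and -0.03). The circles scatter around their own dashed line, with Msl1 and Msl2 below it and Msl3 above it.

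Per kilobase of accessible promoter, Kansl2 was the most open of the 10 genes in Control epithelial-like cells, with 70.8 CPM per kb (68.3 to 73.4). Phf20 (63.8) and Mcrs1 (63.2) followed and their intervals overlapped. Kat8 had 53.1 CPM per kb (51.0 to 55.3), at the 90.4th percentile of promoters, then came Msl2 with 45.0 and Kansl1 with 34.9. Kansl3 (22.5), Msl1 (20.2), Wdr5 (18.9) and Msl3 (17.2) were the least open, and each of these overlapped its neighbour in the order. The promoters of MOF and its partners were thus not open to one common degree.

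Kat8 was the only one of the 10 that was more accessible in epithelial-like than in fibroblast-like cells of the Control. Its log2 ratio of epithelial-like over fibroblast-like was 0.75 (0.62 to 0.88), while the median promoter was at -0.18. Msl3 lay at the other end with -0.98 (-1.13 to -0.83), and the other 8 between -0.47 for Wdr5 and -0.10 for Mcrs1. In the MOF cKO library the ratio of Kat8 was 0.41 (0.30 to 0.52) and that of the median promoter -0.57, so Kat8 kept its place above the others.

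The remaining classes were small, and most levels in them overlapped. Kat8 had 45.0 CPM in 46 Control immune-like cells and 36.6 in 281 MOF cKO ones, and its lowest Control level was 21.6 (10.6 to 39.2) in 19 mural-like cells. Msl2 was highest in immune-like cells of both libraries, at 92.5 CPM (74.3 to 114) in Control and 78.3 (70.6 to 86.7) in MOF cKO, 2.37 and 3.11 times its lowest level, in epithelial-like cells. Phf20 was also highest in immune-like cells of both, at 107 CPM (87.4 to 130) and 97.1 (88.5 to 106). The immune-like intervals of both genes overlapped the muscle-like ones in both libraries. They also overlapped the endothelial-like ones, for Msl2 in both libraries and for Phf20 in Control. The epithelial-like interval of Msl2 in Control lay within the mural-like one (24.3 to 62.3). Epithelial-like cells had the lowest level for 6 of the 10 members in the Control library (background 35.4%) and for 9, all but Kat8, in the MOF cKO library (background 56.7%). Among those 9 the interval of Msl1 overlapped those of muscle-like and endothelial-like cells, that of Kansl3 the muscle-like one and that of Phf20 the endothelial-like one. Of the 6 in Control, the intervals of Kansl1, Kansl2, Mcrs1 and Wdr5 also overlapped that of another class, and that of Msl3 did not.

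The genes whose promoters followed the Kat8 pattern most closely were Lss, an enzyme of cholesterol synthesis (Pearson r of 0.909), Sipa1l3 (0.888) and Sft2d2 (0.880). These values are across 10 groups of class and genotype on log2(CPM + 5), for 14989 autosomal genes; the groups share libraries and differ in depth, and the values are a description. The other 9 members had r between -0.22 for Msl3 and 0.19 for Phf20, so none resembled Kat8 in its distribution over classes.

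Each of the large epithelial-like clusters came wholly or almost wholly from 1 library, so levels are set side by side between clusters and not within them. Kat8 had 48.3 and 51.7 CPM in Control clusters 1 and 7, and 36.0, 35.0 and 39.9 in MOF cKO clusters 0, 2 and 6. Msl1 had 24.5 and 27.2 CPM in the Control clusters and 15.7, 15.2 and 16.7 in the MOF cKO clusters. For Msl3 the ranges were close, with 16.7 and 18.6 CPM against 15.3, 14.4 and 13.9. Only cluster 7 had at least 20 cells of both libraries. Its 23 MOF cKO cells had 46.5 CPM (31.7 to 65.8) for Kat8, against 51.7 in its Control cells. For every member their wide interval included the Control value of that cluster. Cells were clustered on accessibility itself, so closeness to the Control cells of the same cluster is partly built in and no conclusion is drawn from it. A small MOF cKO cluster, number 14, with 69 cells and a median of 18727 sites per cell, gave the highest MOF cKO level of every member, including 128 CPM (103 to 158) for Phf20 and 70.2 (51.8 to 93.1) for Msl2; it was singled out after its values were seen. At Leiden resolution 2 these cells joined an immune-like cluster, and 127 MOF cKO epithelial-like cells in all were then named immune-like. The epithelial name of all of these is therefore doubtful. Leaving out cluster 14 alone changed the promoter values by less than their counting intervals.

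**Figure D2:**
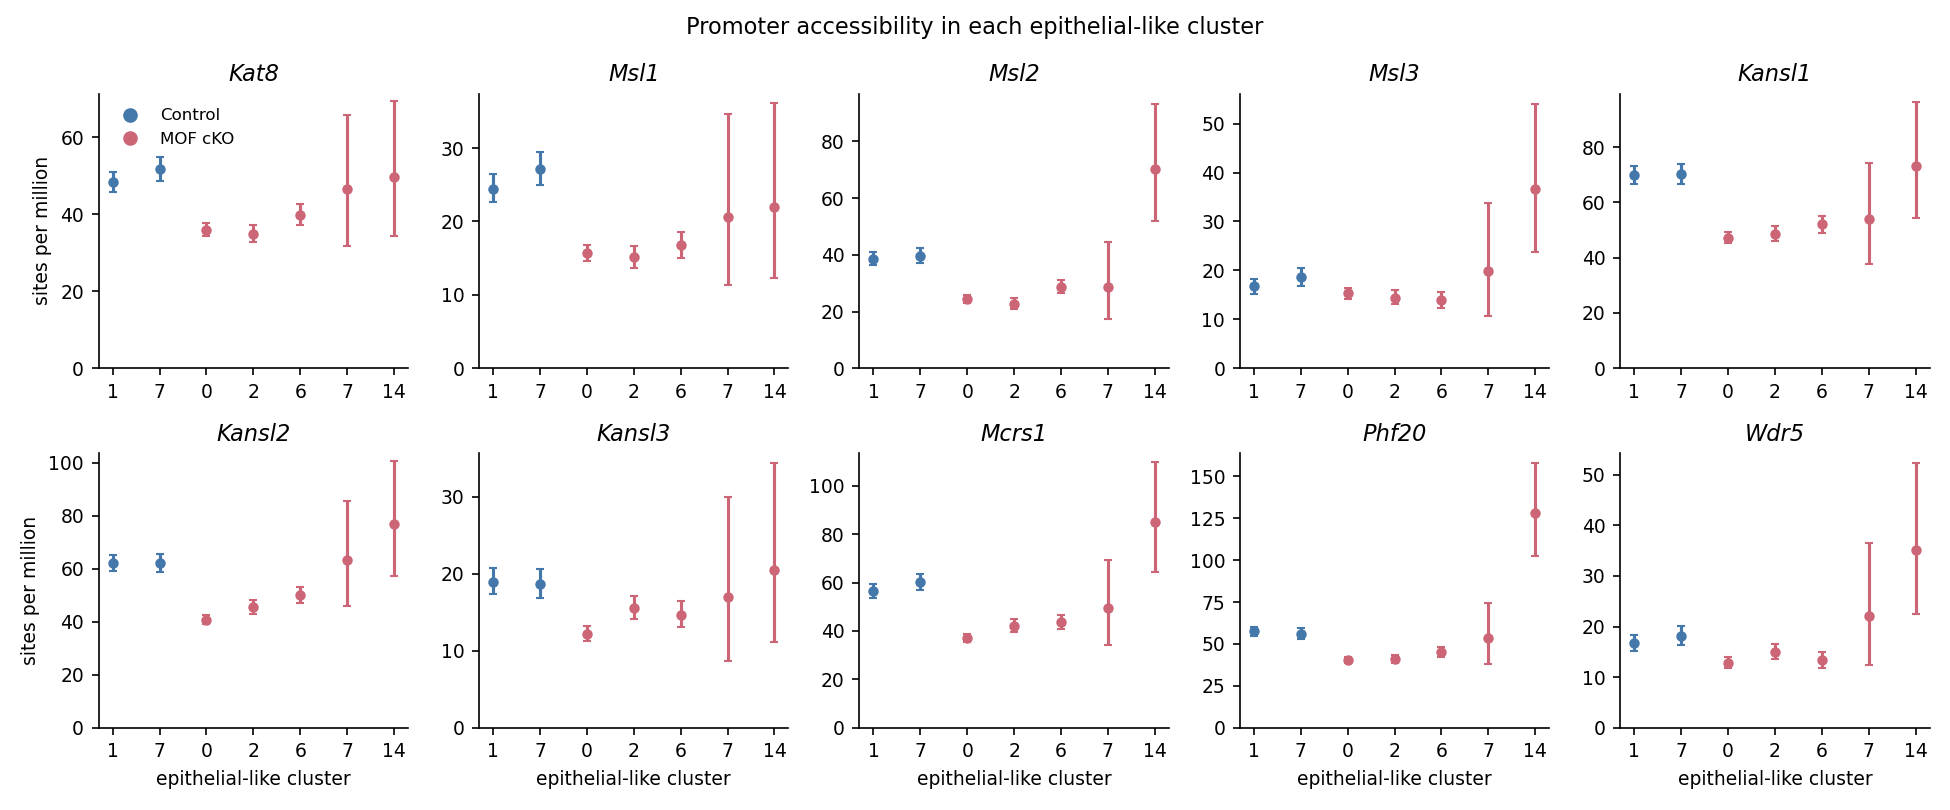
Promoter accessibility (CPM, sites per 1000000) of each gene in the epithelial-like clusters with at least 20 cells of a library, Control clusters 1 and 7 first, then MOF cKO clusters 0, 2, 6, 7 and 14; bars are 95% Poisson intervals. Kat8 stands at 48.3 and 51.7 in the Control clusters and at 35.0 to 39.9 in the 3 large MOF cKO clusters, and cluster 14 has wide bars and high values.

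The other genes tied to these complexes were mostly lower, with list medians near that of all promoters (-0.41) at the main setting. Of the NSL subunits not among the 10, Hcfc1 (-0.72, at the 8.28th percentile), Ogt and Phf20l1 (-0.45) were all lower, with a median of -0.49 in epithelial-like cells. With cells thinned to equal depth and at Leiden resolution 2 this list lay further below the median promoter, as given under the processing. Of 11 COMPASS genes that share WDR5, 10 had a value and 9 were lower (84.7% of all promoters were), with a median of -0.40. They ran from Kmt2a at -0.70 (-0.79 to -0.61), at the 9.13th percentile of promoters, to Setd1b at 0.022 (-0.40 to 0.45). Setd1b was the one gene of these lists at least 25% above the median promoter (background 19.0%). Its promoter was little open, with 142 and 289 sites and 1.46 CPM in Control, at the 5.30th percentile of promoter levels. In fibroblast-like cells Setd1b was at -0.53 (-1.15 to 0.13). The 5 deacetylases known to act on H4 lysine 16 or on MOF had a median of -0.35, from Hdac1 at -0.69 (-0.78 to -0.60), at the 10.2th percentile, to Sirt1 at -0.24 (-0.33 to -0.15). The 4 other MYST acetyltransferases had a median of -0.45, from Kat6a at -0.56 to Kat6b at -0.35. None of these genes was 2-fold lower (background 2.51%) or 2-fold higher (background 2.43%), and none was 20% below the median promoter (background 7.63%).

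Peaks were called in each library separately, and the gene bodies of the members carried calls that the other library lacked. Of the 76 Control peaks at the 10 genes, 64 were overlapped by a MOF cKO peak, or 84.2% (74.0 to 91.6), against 86.8% of all Control peaks. Of the 87 MOF cKO peaks 64 were overlapped, or 73.6% (63.0 to 82.4), against 64.0% of all MOF cKO peaks. Among the 85 gene-body regions, 61.2% were called in both libraries, 14.1% in Control only and 24.7% in MOF cKO only; over all genes these shares were 57.0%, 9.74% and 33.3%. The MOF cKO library held more sites in all (324310197 against 169641002), and the part of depth in these calls was not tested.

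Of the 52 shared gene-body regions with enough sites, 6 were at least 2-fold higher in MOF cKO epithelial-like cells, or 11.5% (background 18.0%), and 10 were at least 2-fold lower, or 19.2% (background 11.2%). Of the 10 lower regions 8 lay in Phf20. Without Phf20, 3 of 29 were 2-fold higher and 2 of 29 were 2-fold lower, so most of the lower regions belonged to that gene. The number of lower regions was 5 of 52 by median-of-ratios over promoters and 5 of 33 with cells thinned to 5000 sites. It was 0 of 23 with the 150000 peaks of most sites per library. Shares over all gene-body regions were not computed at these settings, so an excess over the background can be neither read nor set aside there. The median was -0.21 against -0.06 over all gene-body regions. In fibroblast-like cells 1 of 49 was 2-fold higher (background 10.5%) and 5 were 2-fold lower (background 8.04%).

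Short stretches of 4 gene-body regions are printed from GRCm38, on the strand of the gene, to show 3 of the regions that were higher in MOF cKO (Kansl2, Phf20 intron and Msl2 intron) and the one with the lowest ratio (Phf20 exon region). None of the 4 stretches overlaps an exon, although the wider Kansl2 and Phf20 exon regions do. They lie at chr15:98526165-98526284 (minus strand), chr2:156229287-156229406, chr9:101076639-101076758 and chr2:156288168-156288287, and capitals mark TGACTCA on either strand.
Kansl2 region: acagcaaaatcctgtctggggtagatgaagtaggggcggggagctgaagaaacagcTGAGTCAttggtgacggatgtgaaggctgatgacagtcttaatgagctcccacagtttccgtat
Phf20 intron: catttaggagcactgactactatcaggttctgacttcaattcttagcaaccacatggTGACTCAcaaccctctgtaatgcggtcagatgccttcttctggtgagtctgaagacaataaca
Msl2 intron: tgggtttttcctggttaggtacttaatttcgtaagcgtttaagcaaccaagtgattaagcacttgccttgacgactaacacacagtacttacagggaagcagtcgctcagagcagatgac
Phf20 exon region, stretch outside the exon: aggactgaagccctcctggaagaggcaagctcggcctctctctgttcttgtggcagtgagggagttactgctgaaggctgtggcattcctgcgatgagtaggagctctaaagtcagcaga

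The region with the highest ratio was in Kansl2, at chr15:98525771-98526692, 8.03 kb from the gene start and within 500 bp of the start of the small nucleolar RNA gene Snora2b. Its epithelial-like sites numbered 92 (Control) and 1342 (MOF cKO), or 0.947 and 6.89 CPM, a log2 change of 2.86 (2.43 to 3.33). It was higher in each large MOF cKO cluster, with 7.18, 9.17 and 3.51 CPM in clusters 0, 2 and 6 against 1.12 and 0.726 in Control clusters 1 and 7. In fibroblast-like cells the change was 0.74 (0.23 to 1.33). The promoter of Kansl2 moved the other way in the same cells, at -0.48.

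Next came an intron of Phf20 at chr2:156228986-156229791, with 35 and 195 sites and a log2 change of 1.47 (0.71 to 2.25), and an intron of Kansl1 at chr11:104416864-104417776, with 110 and 578 sites and a change of 1.39 (0.97 to 1.83). An intron of Msl2 at chr9:101076229-101077168, named after its values were seen because it held most sites of the higher regions, had 921 and 4661 sites and a change of 1.34 (1.19 to 1.48), and 0.54 (0.29 to 0.79) in fibroblast-like cells. It lies 2.60 kb from a gene start whose promoter was lower, at -0.63. At Leiden resolution 2, 1659 of the 2553 MOF cKO epithelial-like cells went to clusters without a name. The number of 2-fold higher regions then fell from 6 to 1, and the share over all gene-body regions was not computed at this resolution. The changes were 2.17 for Kansl2, 0.12 for Phf20, 0.76 for Kansl1 and 0.93 for Msl2. With cells thinned to 5000 sites the change was 4.29 for Kansl2 and 0.54 for Kansl1.

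The 3 regions with the lowest ratios were all in Phf20. A region over a coding exon at chr2:156287769-156288687 had 605 epithelial-like sites for Control and 198 for MOF cKO, with a log2 change of -2.61 (-2.95 to -2.28), which was -1.81 at Leiden resolution 2. A region over the last coding exon part and UTR at chr2:156307091-156308124 had 845 and 337 sites and a change of -2.33 (-2.60 to -2.07). An intronic region at chr2:156238225-156239121 had 138 and 71 sites and a change of -1.96 (-2.57 to -1.34). The exon region had 6.04 and 6.47 CPM in Control clusters 1 and 7 and 0.720, 0.589 and 1.84 in MOF cKO clusters 0, 2 and 6. In fibroblast-like cells the exon and UTR regions held 17 and 34 sites in Control, too few to set a direction, and the intronic region had a change of -1.27 (-1.74 to -0.81).

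Along Phf20, a gene of 113487 bp, the lower regions were more frequent toward the 3′ end. From 80 kb onward 5 of 8 regions were 2-fold lower and 0 of 8 higher, with a median of -1.28, while before 80 kb 3 of 15 were lower and 3 of 15 higher, with a median of 0.23; the division at 80 kb was chosen after the values were seen. Kansl1, of 135633 bp, had 0 of 12 regions 2-fold lower and 1 of 12 higher. Over all genes, 11.2% of gene-body regions were 2-fold lower and 18.0% were 2-fold higher. Regions over coding exons were 2-fold lower in 4 of 12 cases among the members, against 9.03% of 14790 such regions over all genes, and these 4 were in Phf20. With the median promoter set to 0 the counts were smaller, at 2 of 12 (background 3.65%) over coding exons. In Phf20 they were then 3 of 8 from 80 kb onward and 1 of 15 before it. The share over all gene-body regions was not computed at this scaling.

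**Figure D3:**
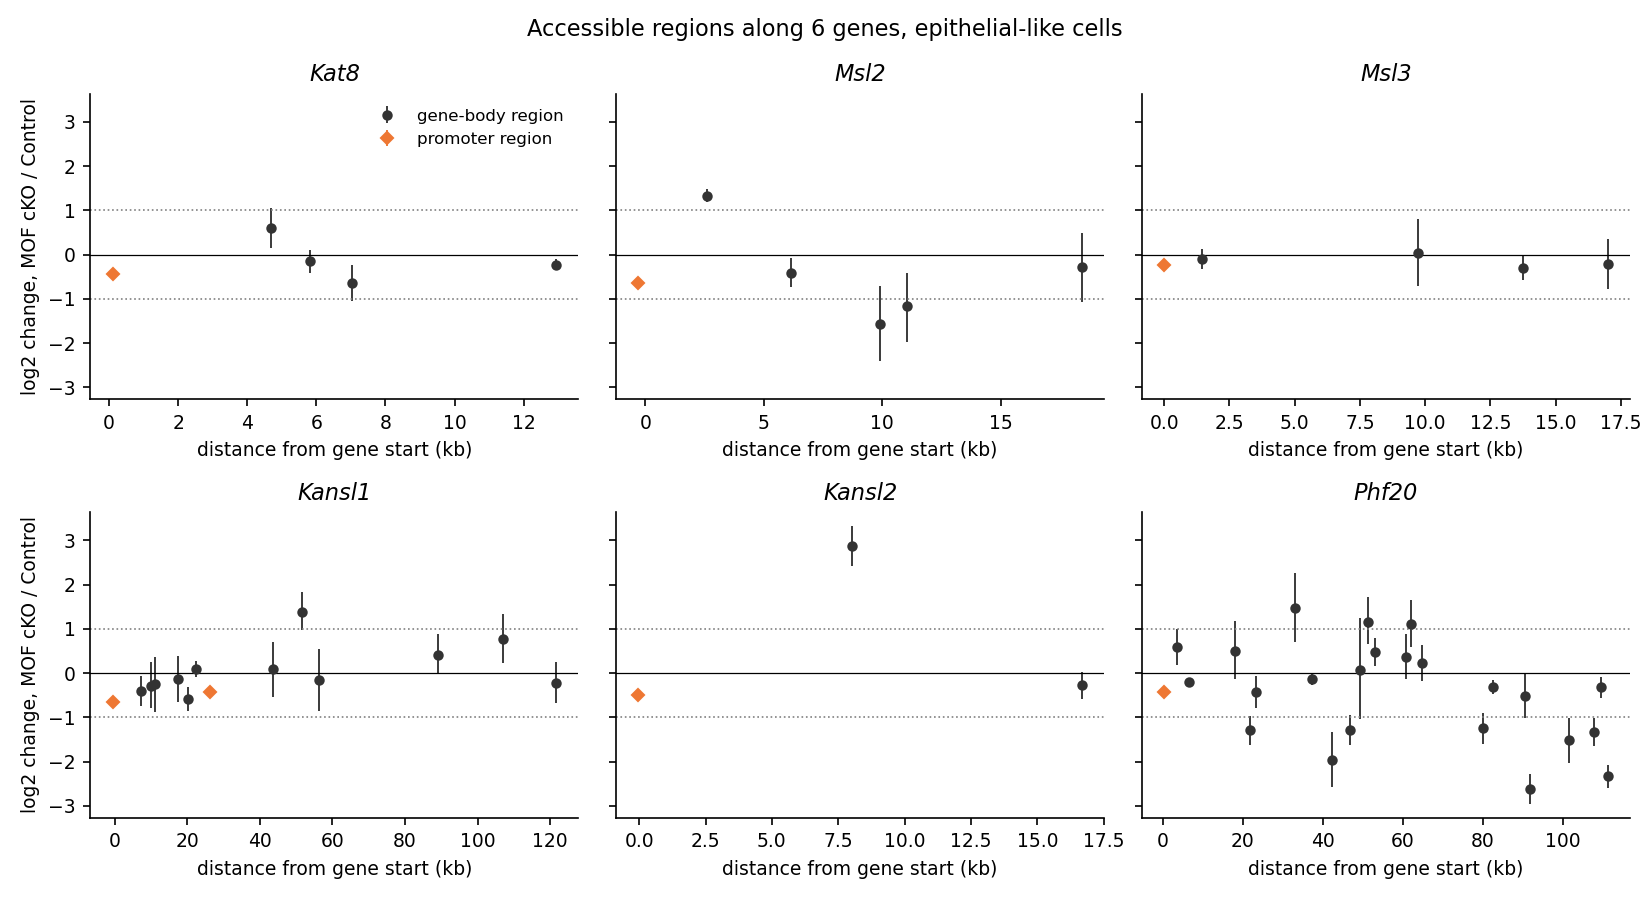
Log2 change in epithelial-like cells, MOF cKO over Control, of accessible regions along Kat8, Msl2, Msl3, Kansl1, Kansl2 and Phf20 by distance from the gene start in kb, with 95% counting intervals; diamonds are promoter regions and dotted lines mark 2-fold. The Kansl2 region at 8.03 kb is the highest point (2.86), and the points of Phf20 beyond 80 kb include its lowest (-2.61).

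TGACTCA, in the central 500 bp, was found in 21.2% of the 52 shared gene-body regions of the members and in 20.6% of 95797 over all genes. Over all genes, regions with it had a median change of 0.93 in epithelial-like cells and those without it -0.21. Among the members the medians were 0.50 over 11 regions with it and -0.28 over 41 without it. Of the 11, 4 were 2-fold higher, or 36.4% (background 47.6%), and 1 was 2-fold lower (background 2.72%). Of the 41, 2 were 2-fold higher, or 4.88% (background 10.3%), and 9 were 2-fold lower, or 22.0% (background 13.4%). In fibroblast-like cells the medians over all genes were 0.33 with TGACTCA and -0.06 without it, and 20.4% and 7.82% were 2-fold higher. The fibroblast medians of the members were -0.10 over 10 regions with it and -0.14 over 39 without it, with 0 and 1 regions 2-fold higher. Of the 3 regions named above for the highest ratios, those in Kansl2 and Phf20 had these letters and the one in Kansl1 did not; of the 3 with the lowest ratios, the Phf20 UTR region (-2.33) had them and the others did not. The Msl2 intron lacked them.

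The gene body of Kat8 itself held 4 shared regions, none past 2-fold. Intronic regions centred 4.68 and 5.83 kb from the start had log2 changes of 0.60 (0.16 to 1.06) and -0.15 (-0.41 to 0.12), and a region over a noncoding exon 7.02 kb from the start had -0.64 (-1.04 to -0.23). The region at the 3′ end, chr7:127925006-127925909, was the most accessible of them, with 1537 and 2637 sites and a change of -0.22 (-0.35 to -0.09); it overlaps the neighbouring gene Prss8 and its counts cannot be assigned to one of the genes. Further calls were made in a single library. Regions at chr7:127921265-127922167, over a coding exon, and chr7:127922747-127923760, in an intron, were called in Control only, with 195 and 322 epithelial sites, and one at chr7:127914978-127916130 was called in MOF cKO only, with 271. A region without a call has no counts in that library, so these give no fold change.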

How the data were processed

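Per the file headers, the authors made the deposited counts, of transposase cuts in each peak of each cell, with cellranger-atac 2.0.0 on mm10 (GRCm38), calling peaks and cells in each library separately; peaks and barcodes were deposited beside the counts, and the labels also name Cell Ranger ARC. Here, overlapping peaks of the libraries (1 bp) were merged, and regions with a peak from both were called shared. Promoters were shared regions within 500 bp of a protein-coding start of GENCODE M21; gene-body regions were those in a gene and outside this window. Cells with 1000 sites or more were clustered (28 singular vectors, 20 neighbours, Leiden resolution 1) and named from marker genes at least 2-fold higher, at least 3 of them, with a pseudocount of 5 CPM. Simulated neighbours gave doublet scores. Sites were summed per class and library, and a log2 change was given with at least 20 sites over both libraries. Most counts were even (88.8% and 91.6% of values), 2 sites per fragment, so intervals were computed on fragments. No test was possible with 1 library per genotype, and intervals, at 95%, cover counting error only. The number of per-sample columns left unused was 0.

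The text names all 10 genes, the 3 highest and 3 lowest ratios among their gene-body regions with at least 200 epithelial sites, every shared Kat8 gene-body region, the highest and lowest gene of each list, and the 3 autosomal genes most like Kat8 (at least 500 promoter sites, groups of at least 20 cells). Members, lists and rules were chosen with earlier results of these data known. The script for changes was checked on simulated data. Tools were Python 3.11 packages, including numpy, scipy and leidenalg, and samtools. Columns of promoter sequence came from RefSeq for GRCm38.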

Additional observations from a re-analysis of the deposited data

Results flagged for a closer look

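Regions whose change had an interval above 0 in one class and below 0 in the other are given here; the difference between classes was not tested. The 3′ region of Kat8 had a log2 change of -0.22 for epithelial-like cells and 1.66 (0.44 to 2.88) for fibroblast-like cells, the latter on 15 and 74 sites, and it became -1.32 when doublet-rich clusters were counted in their class. An intron of Kansl1 at chr11:104361480-104362396 had 0.77 (epithelial-like) and -0.65 (fibroblast-like). In Phf20, the intron at chr2:156199617-156200605 had 0.59 and -0.79, the one at chr2:156228986-156229791 had 1.47 and -1.34, and the one at chr2:156297445-156298339 had -1.51 and 0.66.

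Calls made in the MOF cKO library alone enter no ratio. Those with at least 500 epithelial sites were an intron of Kansl2 at chr15:98531993-98532868 with 969 sites, and introns of Phf20 at chr2:156207999-156208876 with 554 and at chr2:156221864-156222770 with 927. In MOF cKO fibroblast-like cells they held 148, 20 and 193 sites.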

How the results depend on the processing

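No paired analysis was possible because each genotype had 1 library, and for the same reason no library could be left out. Over 14 alternatives, the 10 promoters had a lower epithelial median in MOF cKO throughout; it moved from -0.47 to -0.62 when scaled by sites in all peaks of a library, to -0.057 by median-of-ratios over promoters and to -0.37 with each value set to 1. The fibroblast median moved from -0.06 to -0.34 when scaled by sites per cell. By median-of-ratios Msl3 became 0.19, Wdr5 0.083, the 3′ region of Kat8 0.19 and the median of gene-body regions 0.20. Of 52 gene-body regions 5 were then 2-fold lower, and the share over all gene-body regions was not computed by this scaling. With cells thinned to 5000 sites, Msl3 was at 0.019, 1 gene was 20% below and 1 was 25% above the median promoter. Only 33 gene-body regions then had a value, and 5 were 2-fold lower. Shares over all promoters and gene-body regions were not computed with thinned cells. The NSL subunits not among the 10 (Hcfc1, Ogt and Phf20l1) were at -0.38 relative to all promoters with thinned cells. At Leiden resolution 2 those subunits were at -0.23 and 1 region was 2-fold higher. With the 150000 peaks of most sites per library, 23 gene-body regions had a value, 3 were 2-fold higher and 0 lower. Of the peaks at the 10 genes, 69.4% of Control and 81.0% of MOF cKO peaks were then overlapped, so the order of the libraries turned around. Shares over all regions and peaks were not computed at this resolution or with these peaks. With doublet-rich clusters counted in their best class, the 3′ region of Kat8 in fibroblast-like cells was at -1.32. With shallow cluster 8 counted as epithelial, or without cluster 14, no named promoter or median moved beyond its counting interval. These 3 alternatives, on which clusters to count, were chosen after seeing the data. Msl1 was lowest and Msl3 highest of the 10 in epithelial-like cells under all 14, and Msl2 second lowest except with thinned cells. The cause of these differences was not tested. Few sites per region limit the gene-body results in fibroblast-like cells.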

Other observations

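In the MOF cKO library, 23 epithelial-like cells fell into cluster 7, which otherwise held 529 Control cells; none of their barcodes occurred in the Control library, and their median doublet score was 0.26. They were singled out after their values were seen. At the Phf20 coding exon with the lowest ratio they had 14.7 CPM (7.07 to 27.1) on 20 sites, against 6.47 (5.43 to 7.64) in the Control cells of that cluster and 0.589 to 1.84 in MOF cKO clusters 0, 2 and 6. At the Kansl2 region they had 1.47 CPM (0.0373 to 8.22) on 2 sites, against 0.726 in Control. The intervals are wide at this number of cells, and the cells share cluster 7 with Control cells because their accessibility was alike.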
